A study of Homo sapiens with 6 samples.

Results

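CPTP, TPRG1L, C1orf174 and MORN1 are 4 protein-coding genes near the start of chromosome 1. They were chosen by their read counts in the adriamycin and etoposide libraries of U2OS cells, as coding genes with less RNA after adriamycin than after etoposide, so that difference describes how they were picked and is not a finding. They are 4 of the 77 protein-coding genes among the 220 genes that the count files of all 6 libraries list, and 4 of 67140 genes in the longest files. All 4 passed the filter on low counts, as did 55 of the 77 coding genes and 94 of the 220 genes.

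RNA-Seq was performed on wild-type U2OS cells, a human osteosarcoma line that the labels place in bone and call epithelial. The groups were untreated control cells, cells given adriamycin at 1.5 μg/ml and cells given etoposide (spelled Etopside in the labels) at 100 μM, both drugs for 4 h, with 2 libraries each. Both drugs inhibit topoisomerase II, and adriamycin (doxorubicin) in addition intercalates into DNA. The comparisons ask how the RNA of each gene stood after each drug beside untreated cells. Nothing in the labels says that the libraries of a group came from separate cultures, and legends of the study call the replicates technical. Legends of panels with Hi-C data describe those replicates as grown and sequenced separately, without saying whether the RNA-Seq libraries were too, so the p-values below measure only the spread between these libraries, which may be technical. U2OS is a single cell line, and in bulk RNA fewer cells with a transcript and less transcript per cell cannot be told apart.

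The etoposide libraries were available over the whole gene list and held 21450766 and 14244235 counts. The control and adriamycin libraries were used over their first 220 to 292 genes, the others being not analysed here. The genes shared by all libraries summed to between 59357 and 92794 counts per library, which is 0.433% and 0.430% of all counts in the etoposide libraries. Normalisation therefore rested on these few genes, and its TMM factors lay at 0.848 and 0.882 in adriamycin, 1.01 and 0.998 in control and 1.17 and 1.14 in etoposide. Every scaling used below rests on them too, so fold changes are relative to these genes. A shift of all of them against the rest of the transcriptome would not show under any scaling. In the etoposide libraries, 4 of 5 bone and mesenchymal markers had at least 10 counts in both libraries. COL1A1 stood at 1368, SPARC at 849, VIM at 551 and RUNX2 at 2.03 TPM (counts per length of exon, scaled to a fixed total per library). COL1A2, the remaining marker, had 5 and 2 counts. Of the epithelial markers, the keratins KRT8 and KRT18 stood at 451 and 252 TPM and EPCAM at 18.2, whereas the cadherin CDH1 was at 0.802.

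CPTP encodes the ceramide-1-phosphate transfer protein, a cytosolic protein of the glycolipid transfer protein (GLTP) fold that carries ceramide-1-phosphate between membranes. Ceramide-1-phosphate is made by ceramide kinase (CERK) and activates cytosolic phospholipase A2, which releases arachidonic acid for eicosanoid synthesis, and CPTP has also been linked to autophagy and inflammasome assembly. TPRG1L, also called mover, is a protein of synaptic vesicles in neurons. MORN1 carries MORN repeats, a motif of membrane-associated proteins, and its function is little studied, while C1orf174 is an open reading frame without an assigned function.

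The 4 genes share a feature that their choice did not use. Each has its annotated start site close to that of another gene that runs in the opposite direction, so that both are read outward from one short stretch of DNA. A start site here is the outermost annotated base of the gene. Which starts U2OS cells use was not measured. CPTP (ENSG00000224051, plus strand, chr1:1324756-1328896 in GRCh38) starts 69 bases from INTS11, the catalytic subunit of the Integrator complex that cleaves nascent RNA. TPRG1L (ENSG00000158109, plus strand, chr1:3625015-3630127) starts 229 bases from the non-coding gene ENSG00000238260. C1orf174 (ENSG00000198912, minus strand, chr1:3889125-3900293) starts 54 bases from the non-coding gene LINC01134. MORN1 (ENSG00000116151, minus strand, chr1:2321253-2391707) starts 68 bases from RER1, a protein that retrieves membrane proteins from the Golgi to the endoplasmic reticulum. By the GENCODE 44 annotation, 15 of the 55 coding genes tested (27.3%) had such a divergent start within 1000 bases, the 4 genes included. Of the other coding genes tested, 11 had one and 40 did not. Over the genome 3342 of 20033 coding genes had one (16.7%). The 4 genes are too few, and were chosen after their values were known, for a test of this share.

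**Figure D1:**
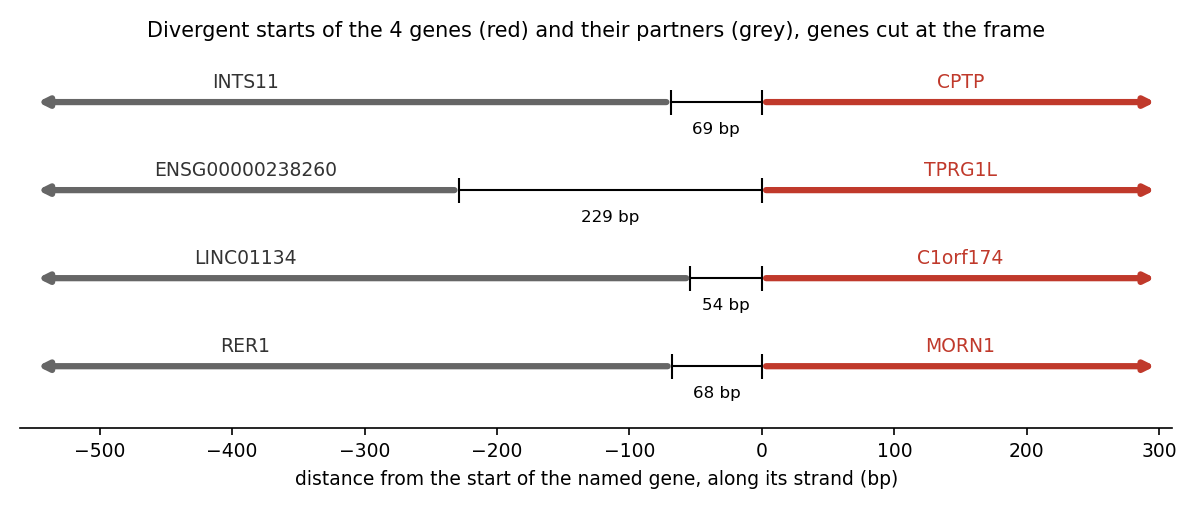
Position of each of the 4 genes (red) and its divergent partner relative to the gene's start site, in bases, with arrows for the direction of transcription. The start sites lie between 54 and 229 bases apart, closest at C1orf174 and farthest at TPRG1L.

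The stretches between the start sites are shown because each is the DNA that the gene shares with its partner. They were read from the RefSeq promoter table of GRCh38.p14, which matched all 4 genes, and are written 5′ to 3′ on the strand of the gene. Capitals mark matches on either strand to the CCAAT box (CCAAT), the GC box (GGGCGG) and the ETS motif (CCGGAAG).
CPTP to INTS11, chr1:1324688-1324755: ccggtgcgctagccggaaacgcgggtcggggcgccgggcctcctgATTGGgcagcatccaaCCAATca
TPRG1L to ENSG00000238260, chr1:3624787-3625014: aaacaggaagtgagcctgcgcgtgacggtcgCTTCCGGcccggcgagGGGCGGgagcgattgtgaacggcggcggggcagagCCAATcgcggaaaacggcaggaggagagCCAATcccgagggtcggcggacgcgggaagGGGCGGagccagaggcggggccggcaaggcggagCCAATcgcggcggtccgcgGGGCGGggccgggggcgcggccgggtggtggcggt
C1orf174 to LINC01134, chr1:3900294-3900346: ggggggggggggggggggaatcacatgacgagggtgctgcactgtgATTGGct
MORN1 to RER1, chr1:2391708-2391774: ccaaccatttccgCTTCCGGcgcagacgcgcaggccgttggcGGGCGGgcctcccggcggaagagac

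The share of G and C was 69.1% for CPTP, 75.4% for TPRG1L, 67.9% for C1orf174 and 73.1% for MORN1, with no share over other promoters taken. The C1orf174 stretch opens with a run of G, which adds to its share. It held the pair CG 1 time in 53 bases, against 8 times in 68 for CPTP, 35 in 228 for TPRG1L and 10 in 67 for MORN1. The CCAAT box matched 2 times at CPTP, 3 times at TPRG1L, 1 time at C1orf174 and 0 times at MORN1. The GC box matched 3 times at TPRG1L and 1 time at MORN1, and the ETS motif 1 time at each of these genes. The TATA box, written TATAAA, matched 0 times in all 4 stretches on either strand. The E-box CACGTG, an E2F motif and the NRF1 and AP-1 motifs likewise had 0 matches. In windows of 300 bases, from 250 before to 50 after each start, CCAAT was present in 34.6% of 35116 RefSeq promoters, GGGCGG in 45.0%, CCGGAAG in 10.3% and TATAAA in 11.5%. In these windows, which take in bases beyond the stretches shown, CPTP had 2 CCAAT, 5 GGGCGG and 1 CCGGAAG matches, TPRG1L 3, 4 and 1, C1orf174 1, 0 and 0, and MORN1 1, 2 and 1. A match is only a match of letters.

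In length the 4 genes had little in common. From first to last base CPTP spans 4141 bases, TPRG1L 5113, C1orf174 11169 and MORN1 70455, against a median of 15152 over the 55 coding genes tested. CPTP and TPRG1L were thus among the shorter coding genes, at places 6 and 9 from the shortest, while MORN1 stood at place 48.

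CPTP had the largest fall with adriamycin of the 4 genes. Control libraries held 378 and 214 CPTP counts, against 107 and 62 in adriamycin and 481 and 258 in etoposide. After normalisation, in which counts are divided by the effective size of their library over the geometric mean of such sizes, these were 306 and 245, 116 and 86.6, and 326 and 271. Both adriamycin libraries lay well under the other 4, and the control and etoposide libraries overlapped. The mean normalised counts were 276 ± 43.0 in control, 101 ± 20.6 in adriamycin and 299 ± 38.3 in etoposide (SD, n = 2 each).

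C1orf174, the most counted of the 4, followed the same order of groups. Its counts were 748 and 465 in control, 280 and 202 in adriamycin and 876 and 547 in etoposide. Normalised, they were 606 and 533, 303 and 282, and 593 and 576. The adriamycin libraries were again the lowest, and both etoposide libraries fell within the range of the control libraries. Mean normalised counts were 570 ± 51.3 in control, 293 ± 14.6 in adriamycin and 584 ± 12.3 in etoposide (SD, n = 2 each).

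TPRG1L differed in that its etoposide libraries lay above the control. It had 212 and 197 counts in control, 114 and 76 in adriamycin and 455 and 257 in etoposide. The normalised counts were 172 and 226, 123 and 106, and 308 and 270. The groups did not overlap, with adriamycin lowest, control between and etoposide highest. The means were 199 ± 38.3, 115 ± 12.1 and 289 ± 26.6 normalised counts (SD, n = 2 each).

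MORN1 had the same order of groups as TPRG1L at lower counts. Its counts were 160 and 109 in control, 99 and 51 in adriamycin and 271 and 188 in etoposide. The normalised counts were 130 and 125, 107 and 71.2, and 183 and 198. The groups did not overlap, but the first adriamycin library came close to the control libraries, and the adriamycin libraries were the most spread. The means were 127 ± 3.25, 89.2 ± 25.3 and 191 ± 10.2 normalised counts (SD, n = 2 each).

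**Figure D2:**
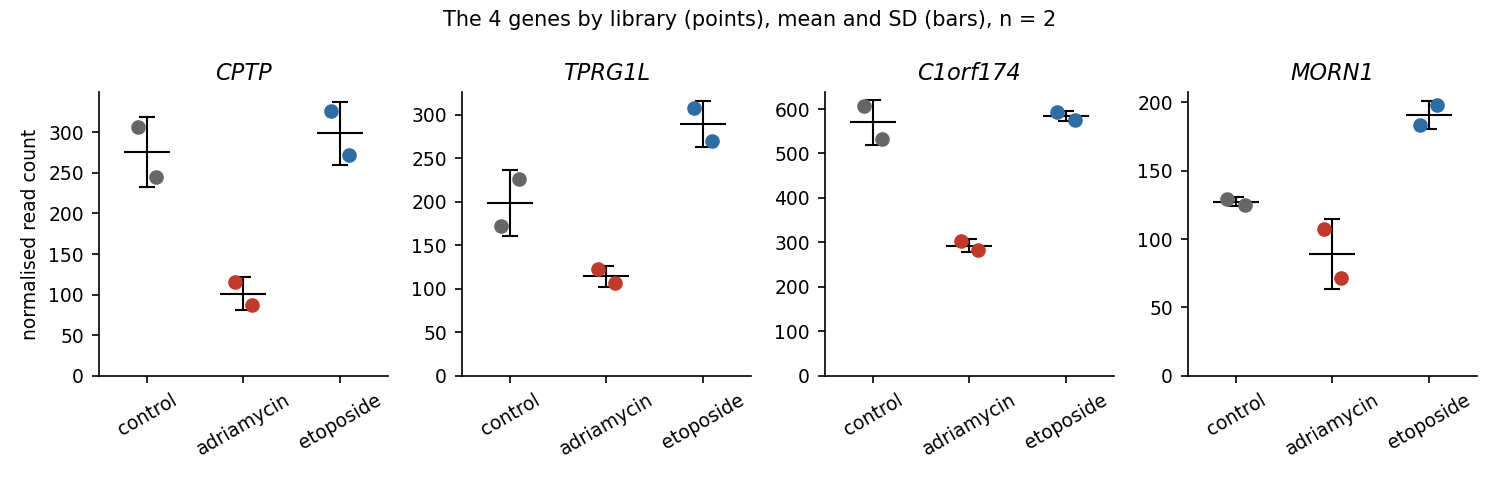
Normalised read counts of the 4 genes in each library (points), with the mean and SD of the 2 libraries of each group (bars). The adriamycin libraries are the lowest for every gene, from 86.6 to 116 for CPTP against 245 to 306 in control, and only for TPRG1L and MORN1 do both etoposide libraries lie above the control libraries.

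Adriamycin was compared with control by edgeR's quasi-likelihood test in one fit of all 6 libraries, with Benjamini-Hochberg adjustment over the 94 genes tested. The test estimates the spread with information shared across these genes. A very small p-value therefore does not come from the 2 libraries of each group alone. A call needed both an adjusted p under 0.01 and a log2 fold change beyond 1 in size. The choice of the genes favours low values in this comparison, since the same adriamycin libraries entered it, and it favours high values of etoposide against control for the same reason. CPTP was the 1 gene of the 4 that was called, while 7.45% of the genes tested were called lower. It fell by 1.44 on the log2 scale (SE 0.17, adjusted p = 1.86e-12 by edgeR's quasi-likelihood test), or 2.71-fold, the seventh lowest of the 94 genes. The call was made under each of the 14 alternatives, in which the change lay between -1.66 and -1.22 and the adjusted p reached at most 0.00702.

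At an adjusted p under 0.01 without regard to size, CPTP, C1orf174 and TPRG1L passed, 3 of the 4 genes, against 19.1% of the genes tested that passed as lower. C1orf174 was lower by a log2 fold change of -0.96 (SE 0.12, adjusted p = 7.24e-12 by edgeR), or 1.95-fold, just short of the size a call needs. It was called under scaling by library size alone and without control 2 (-1.05). Its adjusted p stayed under 0.01 in each of the 14 alternatives, with changes between -1.18 with library size alone and -0.77 under upper-quartile scaling. TPRG1L had a log2 fold change of -0.77 (SE 0.18, adjusted p = 0.000133 by edgeR), or 1.71-fold lower. When 1 library was left out its adjusted p remained under 0.01 only without control 1 (0.000171), and lay between 0.0138 (without etoposide 2) and 0.0285 (without etoposide 1) in the other 5 fits. With only the control and adriamycin libraries in the fit it was 0.0287.

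MORN1 did not pass. Its log2 fold change was -0.49 (SE 0.21, adjusted p = 0.0469 by edgeR), or 1.41-fold, and the 2 adriamycin libraries gave different sizes, -0.78 without adriamycin 1 and -0.24 without adriamycin 2. Scaled by library size alone it was -0.71 with an adjusted p of 0.00409 by edgeR, under the p threshold. For all 4 genes both adriamycin libraries lay under both control libraries, a pattern held by 42.6% of the genes tested. The median log2 fold change of the 4 genes was -0.87, against -0.072 over all genes tested and 0.13 over the 51 other coding genes. The choice of the genes bears on this median, and it is given as a description.

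For etoposide against control, TPRG1L and MORN1 had higher values and CPTP and C1orf174 had values near 0. None of the 4 was called, while 2.13% of the genes tested were called higher and 3.19% lower. TPRG1L was higher by a log2 fold change of 0.56 (SE 0.15, adjusted p = 0.00202 by edgeR's quasi-likelihood test) and was the only 1 of the 4 under an adjusted p of 0.01, which 5.32% of the genes tested passed as higher. Left without 1 library, it stayed under 0.01 only without control 2 (0.00486) and gave 0.36 with an adjusted p of 0.206 without control 1. MORN1 was of the same size, with a log2 fold change of 0.58 (SE 0.19) and an adjusted p of 0.0109 by edgeR that missed the threshold. Across its 14 alternatives 4 were under 0.01, and 0 of the 6 that left out a library.

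CPTP and C1orf174 showed no detectable difference between etoposide and control. For CPTP the log2 fold change was 0.11 (SE 0.14, 95% interval -0.17 to 0.39, adjusted p = 0.594 by edgeR). For C1orf174 it was 0.033 (SE 0.11, 95% interval -0.18 to 0.24, adjusted p = 0.849 by edgeR). Under upper-quartile scaling the values were 0.34 for CPTP (adjusted p = 0.0429 by edgeR) and 0.26 for C1orf174 (adjusted p = 0.0338 by edgeR), still short of the threshold. Both etoposide libraries lay above both control libraries for TPRG1L and MORN1, as for 34% of the genes tested, and for neither CPTP nor C1orf174.

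Adriamycin against etoposide is the comparison by which the genes were chosen, and its values carry no test here. The log2 fold changes were -1.55 for CPTP (SE 0.17), -1.33 for TPRG1L (SE 0.17), -1.07 for MORN1 (SE 0.20) and -0.996 for C1orf174 (SE 0.12). CPTP, TPRG1L and MORN1 met the call by size and p, 3 of the 4, beside 10.6% of the genes tested in this direction, and nothing is read from that count. Both adriamycin libraries lay under both etoposide libraries for all 4 genes, as for 40.4% of the genes tested, which the choice also fixes. Ranked over the 55 coding genes tested, they took places 2, 3, 5 and 6 from the lowest. Just outside were TP73 at -0.93 and SKI at -0.90, and 2 coding genes not among the 4 lay as low or lower, TNFRSF14 at -1.81 (SE 0.48) and CFAP74 at -1.20 (SE 0.54).

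The size of the gap between the drugs was made up differently in the 4 genes. In CPTP and C1orf174 it lay nearly all between adriamycin and control, whereas MORN1 had values of 0.58 for etoposide and -0.49 for adriamycin against control, and TPRG1L of 0.56 and -0.77. The contrast of control with the mean of both drugs on the log2 scale separates these patterns, because it is not fixed by the difference between the drugs. Control was above the mean of the drugs for CPTP by 0.66 (SE 0.13, adjusted p = 1.56e-05 by edgeR) and for C1orf174 by 0.46 (SE 0.096, adjusted p = 3.09e-05 by edgeR). For TPRG1L it stood at 0.10 (SE 0.14, adjusted p = 0.593) and for MORN1 at -0.041 (SE 0.17, adjusted p = 0.873), neither past the threshold of edgeR's test. Of the genes tested 17% passed as higher in control at this p, and 0 of the 4 genes reached a log2 change over 1, as 4.26% of the genes tested did.

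Both passes were lost without any 1 of 3 libraries. Without control 1 the contrast was 0.47 for CPTP and 0.35 for C1orf174. It was 0.73 and 0.47 without etoposide 1, and 0.61 and 0.46 without etoposide 2. These fits leave 1 library in a group and fewer libraries to estimate the spread, so a lost pass need not mean a smaller difference. The direction was the same without any 1 of the libraries, between 0.47 and 0.81 for CPTP and between 0.35 and 0.56 for C1orf174. Under upper-quartile scaling C1orf174 stood at 0.26 with an adjusted p of 0.0202 by edgeR. The difference in pattern between the first and the second pair of genes was not itself tested.

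**Figure D3:**
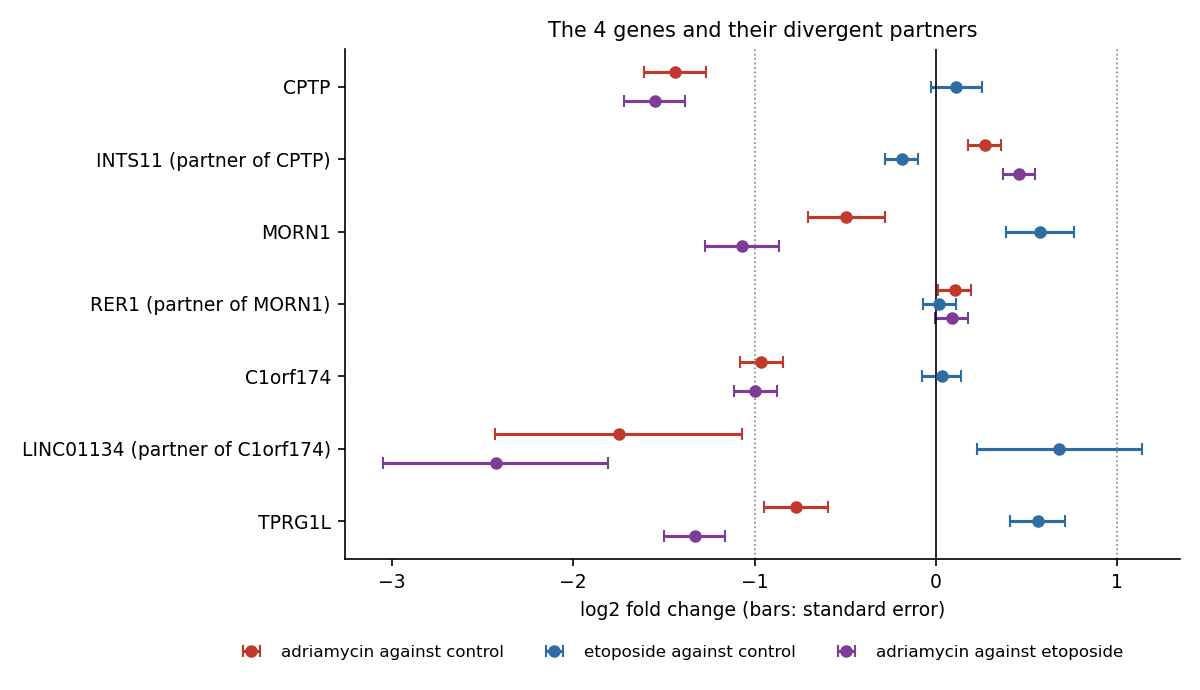
Log2 fold changes of the 4 genes and of their tested divergent partners in each comparison, with standard errors (bars). CPTP lies at -1.44 for adriamycin against control while its partner INTS11 lies at 0.27, and MORN1 lies at -0.49 while RER1 lies at 0.10.

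**Figure D4:**
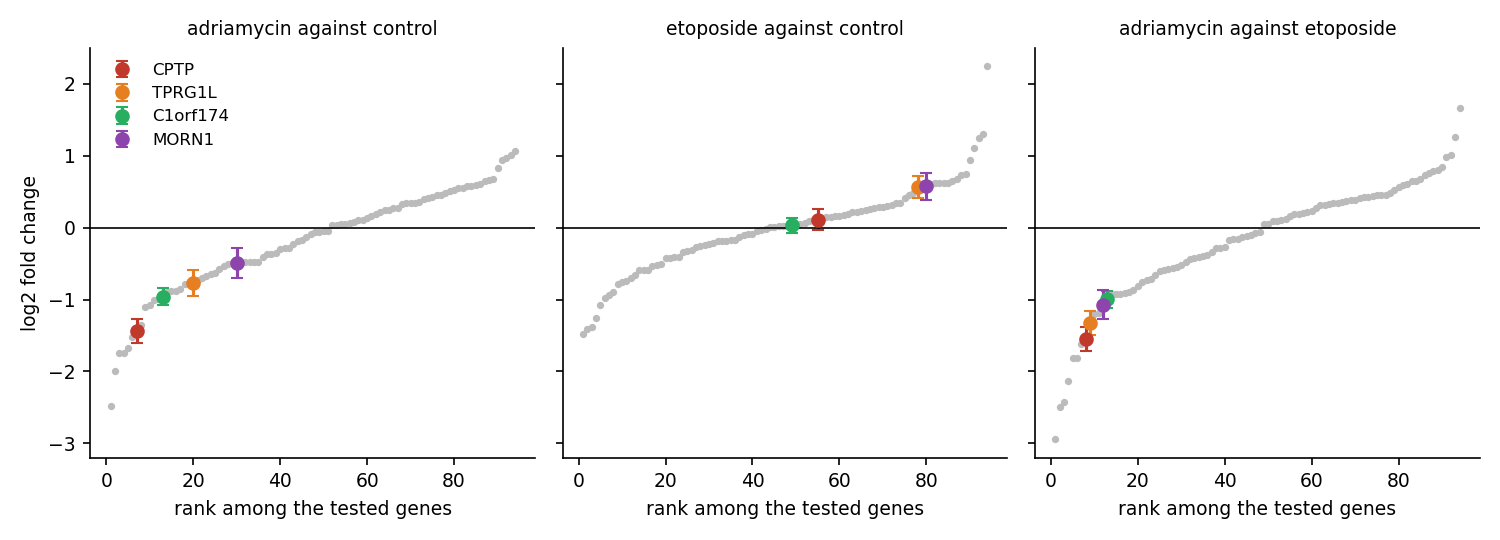
Log2 fold changes of all 94 genes tested, sorted from lowest to highest in each comparison, with the 4 genes marked. For adriamycin against control the 4 genes take places 7, 13, 20 and 30 from the lowest, and for etoposide against control they take places 49 to 80.

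Of the divergent partners, the coding genes INTS11 and RER1 were well counted and both non-coding genes were not. INTS11 had 2136 and 1545 counts in control, 1961 and 1500 in adriamycin and 2238 and 1481 in etoposide, and its log2 fold change with adriamycin was 0.27 (SE 0.089, adjusted p = 0.00878 by edgeR). It was 0.052 with an adjusted p of 0.610 when libraries were scaled by size alone, and 5 of the 6 fits without 1 library took its adjusted p above 0.01. For etoposide against control INTS11 lay at -0.19 (adjusted p = 0.0965 by edgeR), which turned to 0.034 under upper-quartile scaling. The ratio within a library does not depend on scaling. There were 17.7 and 13.9 CPTP counts per 100 INTS11 counts in control, 5.46 and 4.13 in adriamycin and 21.5 and 17.4 in etoposide. The ratio was thus lowest in both adriamycin libraries, with the log2 fold change of CPTP under that of INTS11 by -1.71 (SE 0.19) for adriamycin against control.

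RER1, the partner of MORN1, had 1687 and 1275 counts in control, 1408 and 1085 in adriamycin and 2158 and 1330 in etoposide. Its log2 fold change was 0.10 with adriamycin (SE 0.092, adjusted p = 0.343 by edgeR), which turned to -0.11 under scaling by library size alone, and 0.018 with etoposide (SE 0.091, adjusted p = 0.885). MORN1 counts per 100 RER1 counts were 9.48 and 8.55 in control, 7.03 and 4.70 in adriamycin and 12.6 and 14.1 in etoposide. The groups did not overlap in this ratio either, and the log2 fold change of MORN1 less that of RER1 was -0.60 (SE 0.23) with adriamycin and 0.56 (SE 0.21) with etoposide. Both standard errors take the genes as independent.

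LINC01134, read outward from the stretch it shares with C1orf174, was counted rarely. It had 20 and 15 counts in control, 5 and 3 in adriamycin and 34 and 30 in etoposide. The adriamycin libraries were the lowest and the etoposide libraries the highest, with log2 fold changes of -1.75 for adriamycin against control (SE 0.68, adjusted p = 0.0277 by edgeR) and 0.68 for etoposide against control (SE 0.46, adjusted p = 0.224 by edgeR), neither past the threshold. The partner of TPRG1L, ENSG00000238260, had 3 and 0, 0 and 0, and 6 and 1 counts and was not tested. Counts this low do not show whether it moved.

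**Figure D5:**
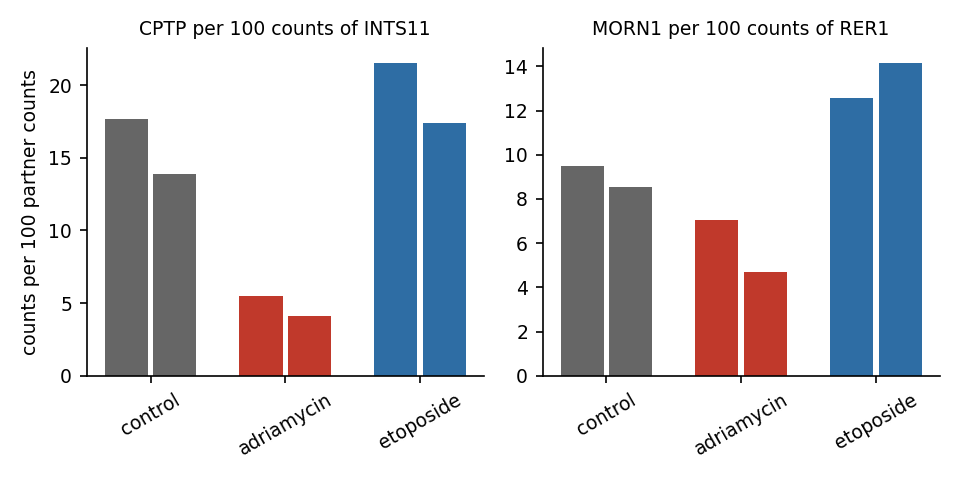
Counts of CPTP per 100 counts of INTS11 and of MORN1 per 100 counts of RER1 in each library, a ratio that scaling between libraries leaves as it is. The adriamycin libraries are lowest in both, at 5.46 and 4.13 for CPTP against 13.9 to 21.5 in the other groups, and at 7.03 and 4.70 for MORN1 against 8.55 to 14.1.

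The 11 other tested coding genes with such a start had a median log2 fold change of 0.28 for adriamycin against control, ranging from -0.47 to 0.97, against 0.053 in the 40 without one. For etoposide against control the medians were 0.055 and -0.13. The lowest of the 11 with adriamycin was B3GALT6. These are descriptions, with no test.

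MORN1 is the one of the 4 whose gene body overlaps other genes, so that its counts could take in reads of them. The non-coding gene ENSG00000287356 on the opposite strand overlaps 327 bases (2.88%) of its exons, and the strand setting of the counting is not given in the sources used here, so reads from that overlap cannot be told apart. ENSG00000287356 had 36 and 11 counts in control, 24 and 13 in adriamycin and 26 and 30 in etoposide. MORN1 had 160 and 109, 99 and 51, and 271 and 188. The log2 fold change of ENSG00000287356 with adriamycin was 0.036 (SE 0.47, adjusted p = 0.940 by edgeR). In an intron of MORN1, on the same strand, lies the transcribed pseudogene ENSG00000269896, with 38 and 33, 22 and 6, and 70 and 55 counts. Its groups had the order of MORN1, with a log2 fold change of -1.004 with adriamycin (SE 0.45, adjusted p = 0.0544 by edgeR) that was -1.94 without adriamycin 1 and -0.50 without adriamycin 2, and what part reads from the MORN1 intron have in it was not tested. No exon of CPTP, TPRG1L or C1orf174 overlapped another gene. The pseudogene TPRG1LP1 on chromosome 19 had 3 counts in each etoposide library, against 455 and 257 for TPRG1L. The setting for reads that map to several places is not given either, so reads shared by these genes cannot be told apart.

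Likeness between genes was measured as the root mean square distance of centred log2 normalised counts over the 6 libraries, so that a small value means a like pattern. Nearest to CPTP of the 93 other genes tested was the non-coding MRPL20-AS1 at 0.149, followed by C1orf174 at 0.277 and TP73, a p53 family gene, at 0.350, with a median of 0.830. For C1orf174 the nearest were PANK4 at 0.212, LINC01128 at 0.218 and TP73 at 0.225 (median 0.618). B3GALT6, which builds the linker of proteoglycans, was nearest to TPRG1L at 0.215, with MORN1 at 0.216 and C1orf174 at 0.275 (median 0.686). MORN1 was nearest to PANK4 at 0.183, then to TPRG1L at 0.216 and B3GALT6 at 0.244 (median 0.604). CPTP lay at 0.350 from TPRG1L and 0.396 from MORN1, and C1orf174 between 0.275 and 0.277 from each of the other genes of the 4. The distances include the libraries by which the genes were chosen, so nearness among the 4 is in part set by the choice.

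Levels are compared between the genes per length of exon, which merges the exons of all annotated transcripts. That length was 11337 bases over 11 transcripts for MORN1, 4883 over 11 for C1orf174, 2555 over 3 for CPTP and 2401 over 2 for TPRG1L. Which transcripts the cells expressed was not determined, so the order of the genes may depend in part on the annotation. In normalised counts per kilobase of exon, control cells held 117 ± 10.5 of C1orf174, 108 ± 16.8 of CPTP, 82.8 ± 15.97 of TPRG1L and 11.2 ± 0.286 of MORN1 (SD, n = 2 each). C1orf174 and CPTP did not differ beyond their spread, the lowest CPTP library (96.1) lay just above the highest TPRG1L library (94.1), and MORN1 lay far lower. In adriamycin the order was C1orf174 at 59.9 ± 2.99, TPRG1L at 47.8 ± 5.04, CPTP at 39.6 ± 8.06 and MORN1 at 7.86 ± 2.23. CPTP was thus the second highest of the 4 in control and the second lowest in adriamycin, although it and TPRG1L overlapped within their SDs there. In etoposide TPRG1L, C1orf174 and CPTP were level at 120 ± 11.1, 120 ± 2.52 and 117 ± 15.0, with MORN1 at 16.8 ± 0.896.

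Against the whole transcriptome the levels were known only in etoposide. In TPM on merged exon length, CPTP stood at 27.6 ± 3.75, TPRG1L at 28.4 ± 2.83, C1orf174 at 28.2 ± 0.818 and MORN1 at 3.96 ± 0.180 (SD, n = 2 each). The median of the 13715 coding genes with at least 10 counts in both libraries was 16.5. CPTP, TPRG1L and C1orf174 therefore lay at the 63.2, 63.9 and 63.8 percentiles of these genes and MORN1 at the 21.6 percentile. Without division by length the percentiles of CPTP, TPRG1L, C1orf174 and MORN1 were 42.5, 41.9, 59.9 and 33.5, and over all coding genes with 1 count they were 71.3, 71.9, 71.8 and 38.9.

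Genes of the fold family of CPTP and of the metabolism of its lipid were looked up in the etoposide libraries. Of its fold family, GLTP, which transfers glycolipids, stood at 51.6 ± 3.17 TPM, above CPTP, and PLEKHA8 at 10.3 ± 1.02 and GLTPD2 at 6.17 ± 0.412, below it (SD, n = 2 each). Of 31 genes of ceramide and ceramide-1-phosphate metabolism, 28 had at least 10 counts in both libraries, with a median of 13.3 TPM over the 31. Of the 17584 coding genes with at least 1 count, 13715 had at least 10 in both libraries. CERK, which makes the lipid that CPTP carries, stood at 70.5 ± 4.11, and PLA2G4A, the phospholipase that the lipid activates, at 6.71 ± 0.814. The highest was DEGS1, the last enzyme of ceramide synthesis, at 135 ± 0.180, and the ceramide transfer protein CERT1 stood at 3.59 ± 0.383. TPRG1, the relative of TPRG1L, had only 9 and 4 counts. Of the MORN family, MORN4 and MORN2 stood at 23.9 ± 1.39 and 22.3 ± 2.59, above MORN1, while MORN3 had 13 and 3 counts and MORN5 1 and 0. Apart from the 4 genes, 0 genes of these lists were among the 220 genes of all 6 libraries, so no comparison between groups was made for them.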

How the data were processed

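Per the labels and the study's methods, the authors purified poly-A mRNA, sequenced paired-end reads of 150 bp, aligned them to GRCh38 with HISAT2 2.1.0, counted them per Ensembl gene with featureCounts (Subread 2.0.0), and deposited raw counts (versions also from the submitters' processing notes). Options for strand and multi-mapping are not given in the sources used here. The incomplete last line of each control and adriamycin table was left out. For the shared genes, all 6 libraries entered a single quasi-likelihood fit in edgeR 4.0.16 under R 4.3.3, after TMM normalisation and edgeR's default low-count filter, with Benjamini-Hochberg adjustment over 94 genes. Standard errors are the log2 fold change divided by the root of F. Thresholds are those of the study's methods. The libraries of each group differed beyond counting noise. TPM used merged exon lengths of GENCODE 44. The text names the 4 genes, their divergent partners, genes overlapping their exons, the 3 nearest patterns and the genes beside them in rank, with families and pathway lists. ENSG00000269896, TPRG1LP1, TNFRSF14 and CFAP74 were named after their values were seen. Members and lists were chosen with earlier results of these data known. On simulated data with known changes of 2 on the log2 scale in adriamycin against control, 188 of 196 changed genes (95.9%) were called, and 0 of 731 unchanged. The simulation gave every gene the same dispersion and raised as many genes as it lowered. Its changes were larger than those fitted for the 4 genes, so these rates do not apply to changes of their size. Alternatives were other scalings, the DESeq2 1.42.0 Wald test, other filters, only the 4 libraries compared, a replicate block, omission of each library in turn and a threshold of 0.05. Depth limits counting precision, and the intervals are 95% intervals of the fit.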

Additional observations from a re-analysis of the deposited data

How the results depend on the processing

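Of 236 values of the 4 genes under alternatives, 216 kept their direction and their call by p and size together, 8 gained a call, 6 lost one and 6 changed sign. Gains and losses of an adjusted p under 0.01 alone are not in these counts. All 8 gains were of C1orf174, 2 against control and 6 of adriamycin against etoposide (-1.41 to -1.01). The 6 sign changes were all of values near 0: etoposide against control for CPTP was -0.045 without control 2 and -0.040 without etoposide 1 (up to 0.29 without control 1, and 0.34 under upper-quartile scaling), and for C1orf174 -0.066 without control 2 (up to 0.13 without control 1, and 0.26 under upper-quartile scaling). Control against the mean of both drugs was -0.10 for TPRG1L under upper-quartile scaling and -0.082 without control 2 (up to 0.28 without control 1), and 0.090 for MORN1 without adriamycin 1 (down to -0.17 without adriamycin 2, and -0.25 under upper-quartile scaling). Of the calls of adriamycin against etoposide, those of CPTP (-1.38), TPRG1L (-1.20) and MORN1 (-1.10) were lost without etoposide 1, and MORN1 was also lost without adriamycin 2 (-0.81), without etoposide 2 (-0.98) and with DESeq2 size factors (-0.998). Scaling moved the median of all genes: by 0.19 (upper quartile) and -0.22 (library size alone) for adriamycin against control, by 0.22 and 0.20 for etoposide against control, and by -0.41 (library size alone) for adriamycin against etoposide. The cause of these shifts was not tested. For adriamycin against control, 1 gene was called higher, but 4 with upper-quartile scaling, 2 with DESeq2 size factors, 2 with DESeq2's Wald test, 0 with library size alone, 0 with only the 4 libraries and 0 to 2 without 1 library, and 7 were called lower, 5 to 7 without 1 library. For etoposide against control 2 genes were called higher, 1 where every library needed 10 counts and 0 to 2 without 1 library, and 3 lower, 0 to 3 without 1 library. For adriamycin against etoposide 2 genes were called higher, 1 with upper-quartile scaling, library size alone, no filter, at least 10 counts or only the 4 libraries, and 1 to 3 without 1 library, and 10 lower, 21 with library size alone, 5 with at least 10 counts and 2 to 10 without 1 library. For control against the mean of both drugs 4 genes were called higher, 1 to 4 without 1 library, and 0 lower by edgeR (14 at an unadjusted p under 0.05), 4 with upper-quartile scaling, 1 at an adjusted p under 0.05 and 0 to 2 without 1 library. With the replicate block the counts were 1 and 7, 2 and 3, 2 and 10, and 4 and 0 (higher and lower), and the log2 fold change of CPTP was -1.44, and each of the 4 genes kept its call or lack of one in every comparison. The numbers did not pair the libraries: the correlations of deviations between same-numbered libraries were 0.036, -0.070 and -0.010 over 75 genes.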
